A study of Mus musculus with 6 samples.

Results

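The 10 genes described here encode 6 secreted metalloproteinases of the ADAMTS family (Adamts1, Adamts4, Adamts5, Adamts9, Adamts15 and Adamts2) and the 4 tissue inhibitors of metalloproteinases (Timp1, Timp2, Timp3 and Timp4). They were taken from the table by gene symbol, and all 10 were found among the 33971 genes of the table. All 10 were also among the 20397 genes that passed the filter on low counts and were tested. RNA sequencing had been done on articular cartilage of WT mice, in 3 libraries from mice aged 2 months and 3 libraries from mice aged 18 months. No treatment, surgery or transgene is given for either age, and the study's methods describe male mice. The Xist counts of the 2-month libraries, given below, are at odds with that sex. The methods call the samples independent but do not say whether a library holds 1 mouse or a pool, so the p-values below measure the spread between these libraries. The libraries held 48171507 to 59085179 counts.

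Aggrecan, the large proteoglycan that holds water in cartilage, is cut in its core protein by the aggrecanases, of which ADAMTS4 and ADAMTS5 are the best known in joint disease. ADAMTS1, ADAMTS9 and ADAMTS15 are related enzymes that can also cut aggrecan or versican. ADAMTS2 has another task and removes the amino-terminal propeptide from fibrillar procollagens, so that they can assemble into fibrils. TIMPs bind the active site of metalloproteinases. TIMP3 is held in the extracellular matrix and is the strongest inhibitor of ADAMTS4 and ADAMTS5 among the TIMPs, whereas TIMP1, TIMP2 and TIMP4 act mainly on matrix metalloproteinases.

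All 4 TIMPs fell in 18-month cartilage, by 1.41 to 2.73 on the log2 scale, and none of the 6 proteinases passed both limits. Being called meant 2 limits, an adjusted p-value below 0.05 (edgeR's quasi-likelihood test, Benjamini-Hochberg) and a log2 fold change past 1 in either direction, 18-month against 2-month cartilage. With these limits edgeR called 4 of 10 genes lower and 0 of 10 higher, where it called 21.3% of all tested genes lower and 14.9% higher. DESeq2 called the same 4 lower and 0 higher. Of the 20397 tested genes it called 4562 lower and 3989 higher. No member was higher at an unadjusted p below 0.05 either. On the adjusted p-value alone 6 of the 10 were lower, against 27.9% of all tested genes, since Adamts1 and Adamts5 then joined the TIMPs. Neither of these proteinases stayed below 0.05 in all alternative fits. FPKM (fragment counts scaled by transcript length and library size) in all 18-month libraries lay below all 2-month libraries for 5 of the 10 genes, against 32.8% of tested genes, and above them for 0 of 10, against 35.6%. The median log2 fold change was -1.94 for the TIMPs, -0.78 for the 5 aggrecanases and -0.02 for all tested genes. Timp4 kept its call in only 2 of the 6 fits with 1 library left out. Chondrocyte markers, given below, made up 4.57% to 7.08% of counts at 2 months and 0.0633% to 0.169% at 18 months. Their part in the changes of the 10 genes was not tested.

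A library that stood apart touches the values of the proteinases. In 2-month replicate 2 all 6 were higher than in the other 2-month libraries. Its normalised count was 10.8 times the mean of 2-month replicates 1 and 3 for Adamts4, 5.35 times for Adamts15, 5.14 times for Adamts9 and 3.59 times for Adamts2. The same ratio was 1.95 for Adamts1, 1.302 for Adamts5, 1.17 for Timp1 and 0.923 for Timp2, and it was below 1 for Timp3 (0.429) and Timp4 (0.198). Over all tested genes 17.2% were more than 2-fold higher and 5.95% more than 2-fold lower in that library. Without it, Adamts4 was called higher at 18 months (1 of 10 genes, against 23.3% of all tested genes) and the 4 TIMPs were still called lower (4 of 10, against 21.3%). On the adjusted p-value alone Adamts4, Adamts9 and Adamts2 were then higher, 3 of 10 against 32.0%.

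**Figure D1:**
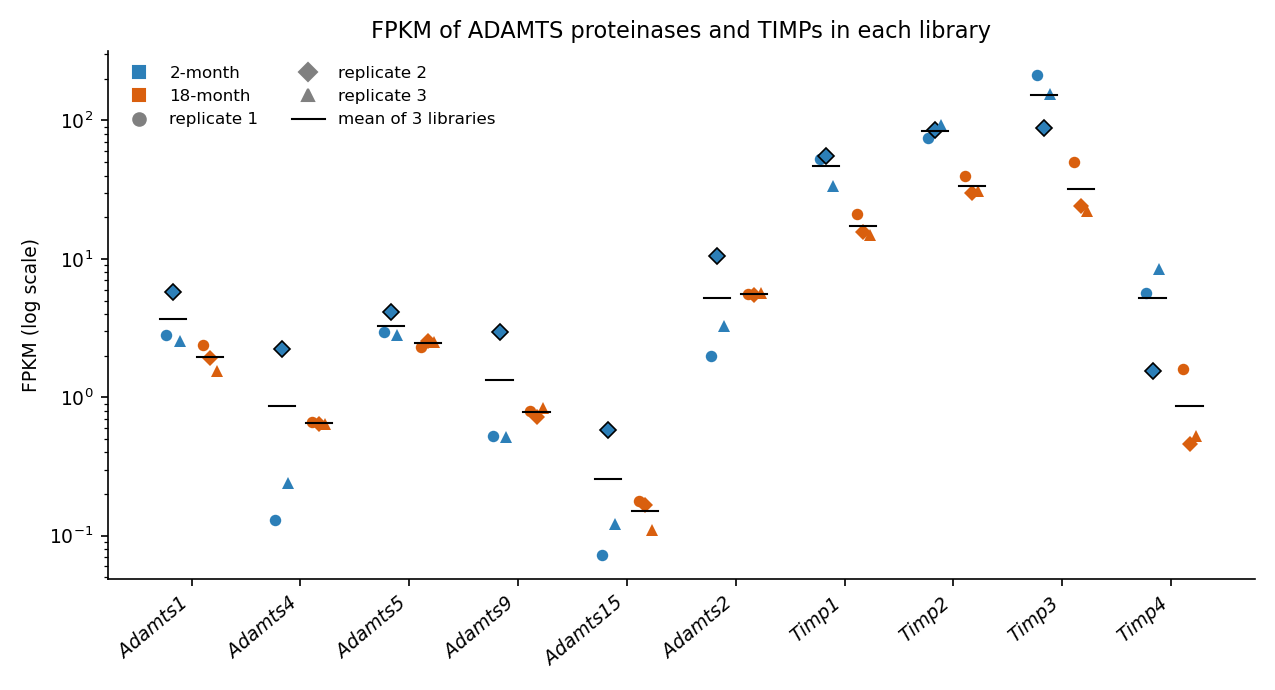
FPKM on a log scale of the 10 genes in each of the 6 libraries, with 2-month libraries in blue, 18-month libraries in orange, a marker shape for each replicate number, 2-month replicate 2 outlined in black, and the mean of 3 libraries as a line. Timp1, Timp2 and Timp3 lie lower in all 18-month libraries, while Adamts4, Adamts9, Adamts15 and Adamts2 in 18-month cartilage lie between 2-month replicate 2 and 2-month replicate 1.

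The upstream sequence of 3 members is shown first. They are Timp1 and Timp4, of the 4 TIMPs called lower, and Adamts1, which also fell but stayed just inside the fold limit. RefSeq promoter windows on GRCm38.p6 were found for 7 of the 10 genes; Adamts4, Adamts5 and Adamts15 were not matched. Each run gives the 250 bases before the RefSeq start, 5′ to 3′ on the strand of the gene, for the windows at chrX:20869916-20870165 (Timp1, plus strand), chr6:115252206-115252455 (Timp4, minus strand) and chr16:85803114-85803363 (Adamts1, minus strand). None of the 3 windows overlaps an annotated exon. Capitals mark a match to a motif on either strand.
Timp1: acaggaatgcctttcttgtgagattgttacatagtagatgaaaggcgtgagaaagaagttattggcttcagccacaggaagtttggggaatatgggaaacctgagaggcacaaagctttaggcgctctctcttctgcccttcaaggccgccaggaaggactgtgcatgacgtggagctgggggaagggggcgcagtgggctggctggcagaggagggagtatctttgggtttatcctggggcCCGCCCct
Timp4: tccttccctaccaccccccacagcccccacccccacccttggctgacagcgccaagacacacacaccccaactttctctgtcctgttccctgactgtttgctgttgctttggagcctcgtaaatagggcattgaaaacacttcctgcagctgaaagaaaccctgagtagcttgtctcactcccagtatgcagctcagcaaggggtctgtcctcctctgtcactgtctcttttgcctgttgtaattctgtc
Adamts1: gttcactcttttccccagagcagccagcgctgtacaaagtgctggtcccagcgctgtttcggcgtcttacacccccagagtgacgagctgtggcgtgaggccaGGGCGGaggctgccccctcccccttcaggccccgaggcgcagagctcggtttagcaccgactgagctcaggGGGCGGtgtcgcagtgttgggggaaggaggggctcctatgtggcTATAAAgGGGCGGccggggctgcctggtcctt
The motifs searched were the GC box GGGCGG, found in 32.7% of all 32851 promoter windows of this length, TATAAA (12.4%), the AP-1 motif TGANTCA (6.75%) and the Runx core TGTGGT (14.1%). None of the 4 motifs overlaps another in the runs above. Adamts1 held 3 GC boxes and the TATAAA, Timp1 held 1 GC box on the opposite strand, and Timp4 held no match. Of the windows not printed, Adamts2 held 5 GC boxes and Adamts9, Timp2 and Timp3 held 1 each. The windows of Adamts2, Timp2 and Timp3 overlap annotated exons of their own gene. No AP-1 or Runx match was found in any of the 7 windows. The GC content was 53.6% for Timp4, 54.4% for Timp1 and 65.6% to 78.0% for the other 5, beside a median of 52.4% for all windows. Thus, no motif of the 4 searched was found in all 4 TIMPs, while Timp1, Timp2 and Timp3 each held a GC box.

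Timp3 was the most abundant of the 10 genes in 2-month cartilage and had the second-largest log2 fold change among them. Its FPKM was 214, 87.7 and 156.6 in 2-month replicates 1, 2 and 3 and 49.9, 24.2 and 22.1 in 18-month replicates 1, 2 and 3. The ages did not overlap, although 2-month replicate 2 was the lowest of its age and 18-month replicate 1 the highest of its own. Mean FPKM went from 153 ± 63.3 (SD, n = 3) to 32.1 ± 15.5 (SD, n = 3). The log2 fold change was -2.36 (SE 0.49, adjusted p = 0.0108, edgeR's quasi-likelihood test, Benjamini-Hochberg adjusted), or 5.13-fold lower.

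Timp2, whose product both inhibits MMP2 and takes part in its activation at the cell surface, had the smallest standard error of the 4 TIMPs. Its FPKM was 74.4, 85.3 and 93.5 in the 2-month libraries and 39.7, 30.0 and 31.2 in the 18-month libraries. No 18-month library came near the lowest 2-month library, and 2-month replicate 2 lay between the other two. The log2 fold change was -1.41 (SE 0.16, edgeR adjusted p = 0.00196), or 2.66-fold lower. Timp1, an inducible inhibitor of most matrix metalloproteinases, was at 52.4, 55.3 and 33.4 FPKM at 2 months and at 21.1, 15.8 and 14.9 FPKM at 18 months. Here too the ages were apart, with 2-month replicate 3 the closest to the older libraries. Its log2 fold change was -1.52 (SE 0.22, edgeR adjusted p = 0.00372), or 2.87-fold lower.

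Timp4, the least abundant TIMP and in other tissues best known from heart and skeletal muscle, had the largest log2 fold change of the 10 and the largest standard error of the 4 TIMPs. Its FPKM was 5.66, 1.55 and 8.502 in 2-month replicates 1, 2 and 3 and 1.59, 0.461 and 0.524 in the 18-month libraries. The ranges overlapped, since 18-month replicate 1 was slightly above 2-month replicate 2. The log2 fold change was -2.73 (SE 0.81, edgeR adjusted p = 0.0340), and -3.16 (edgeR adjusted p = 0.00486) without 2-month replicate 2. The call was lost when 2-month replicate 1 (edgeR adjusted p = 0.0712), 2-month replicate 3 (0.0976), 18-month replicate 2 (0.105) or 18-month replicate 3 (0.109) was left out, with log2 fold changes of -2.17 to -2.66. Timp1, Timp2 and Timp3 remained called lower with any 1 of the 6 libraries left out.

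Of the aggrecanases, Adamts5 was the most even across the libraries. ADAMTS5 is the main aggrecan-cutting enzyme of mouse cartilage. Its transcript was at 2.95, 4.13 and 2.80 FPKM in the 2-month libraries and at 2.30, 2.55 and 2.51 FPKM in the 18-month libraries. All 18-month values lay below all 2-month values, but the distance was small, with a log2 fold change of -0.49 (SE 0.15, edgeR adjusted p = 0.0357) that did not reach the fold limit. Without 2-month replicate 2 it was -0.32 (edgeR adjusted p = 0.0494). Adamts1, an enzyme induced in inflammation and in the ovulating follicle, was at 2.83, 5.75 and 2.53 FPKM at 2 months and at 2.38, 1.94 and 1.54 FPKM at 18 months. These ranges were apart as well, by the narrow gap between 2-month replicate 3 and 18-month replicate 1. Its log2 fold change of -0.98 (SE 0.33, edgeR adjusted p = 0.0496) lay just inside the fold limit. It was past the limit, and called, at -1.08 (adjusted p = 0.0340) when edgeR was run only on genes whose mean FPKM reached 1, and at -1.26 (adjusted p = 0.0336) in limma on TPM. Only these 2 of the 12 alternative fits with all libraries called Adamts1. Over the 12 its adjusted p was 0.0243 (DESeq2) to 0.0969 (limma, pseudocount of 1). None of the 6 fits with 1 library left out called it (edgeR adjusted p = 0.0505 to 0.149). Without 2-month replicate 2 its log2 fold change was -0.56 (edgeR adjusted p = 0.0508).

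Adamts4 had the widest range of the 10 genes within 2-month cartilage. This aggrecanase is induced in chondrocytes by inflammatory cytokines. Its counts were 35, 625 and 65 in 2-month replicates 1, 2 and 3, and 216, 193 and 197 in the 18-month libraries, which makes 0.130, 2.22 and 0.239 FPKM against 0.667, 0.638 and 0.641 FPKM. The 18-month libraries were nearly alike and lay between 2-month replicate 2 and the other 2-month libraries. The exact Poisson 95% interval was 24.4 to 48.7 for the 35 counts and 577 to 676 for the 625 counts, so counting error is small beside this gap; such intervals cover counting error only. The log2 fold change was -0.42 (SE 1.004, edgeR adjusted p = 0.747) with all libraries and 1.70 (edgeR adjusted p = 0.00999) without 2-month replicate 2.

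Adamts9, which cuts versican and aggrecan and is needed in development, followed the same layout. Its FPKM was 0.522, 2.95 and 0.513 at 2 months and 0.793, 0.726 and 0.839 at 18 months. All 18-month values were thus above 2-month replicates 1 and 3 and far below replicate 2. The log2 fold change was -0.78 (SE 0.69, edgeR adjusted p = 0.379), and 0.50 (edgeR adjusted p = 0.0298) without that library. Adamts15, the scarcest of the 10, had 43, 353 and 71 counts at 2 months and 125, 110 and 73 counts at 18 months. Replicate 2 was again above all older libraries, while replicate 3, at 0.122 FPKM, lay within their range of 0.109 to 0.179 FPKM. Its log2 fold change was -0.79 (SE 0.77, edgeR adjusted p = 0.420), and 0.52 (edgeR adjusted p = 0.306) without that library, so neither direction was called.

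Adamts2, the procollagen N-proteinase, was the most abundant of the 6 proteinases in the mean of either age. Its FPKM was 1.98, 10.4 and 3.29 in the 2-month libraries and 5.53, 5.49 and 5.67 in the 18-month libraries. The 18-month libraries were close to each other, with an SD of 0.0961 FPKM, and stood inside the 2-month range. The log2 fold change was 0.06 (SE 0.56, edgeR adjusted p = 0.942). Without 2-month replicate 2 it was 0.98 (edgeR adjusted p = 0.0141), just inside the fold limit. Exact two-sided permutation tests on log2 FPKM could not go below p = 0.1 with 3 libraries against 3, and they gave this smallest value for Adamts1, Adamts5, Timp1, Timp2 and Timp3.

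**Figure D2:**
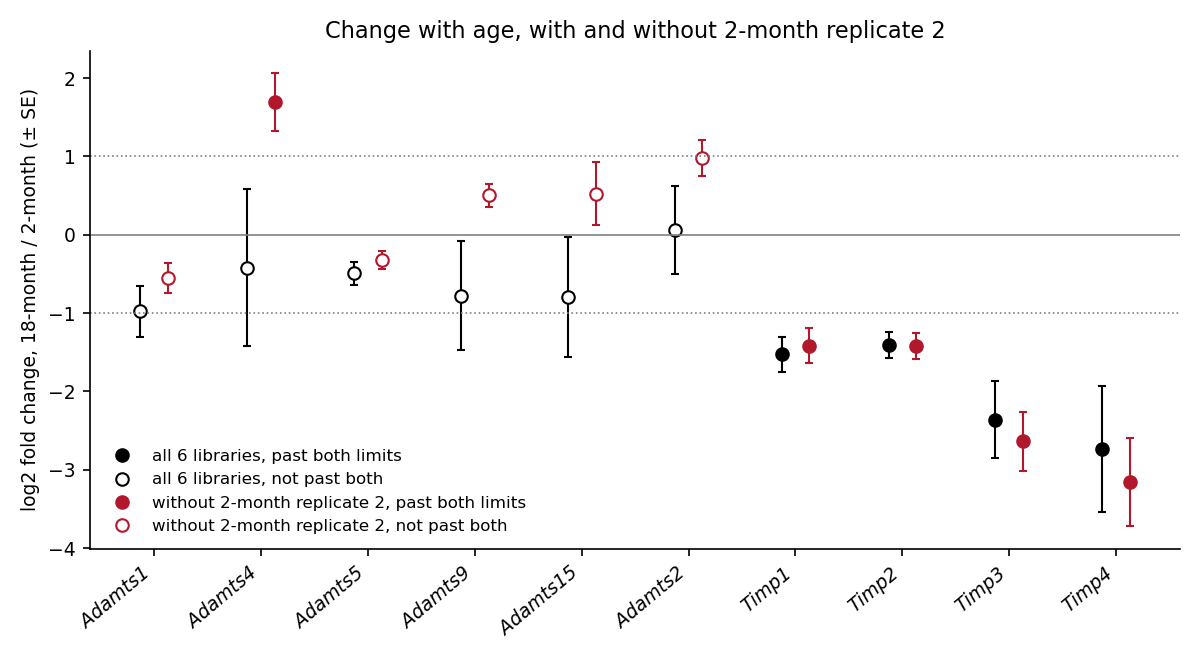
Log2 fold change of 18-month against 2-month cartilage with its standard error for each of the 10 genes, from edgeR with all 6 libraries (black) and without 2-month replicate 2 (red). Filled points passed both limits, and dotted lines mark a log2 fold change of 1 in either direction. The 4 TIMPs stay below -1 in both fits, while Adamts4, Adamts9 and Adamts15 cross zero.

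Per length of transcript, Timp1, Timp2 and Timp3 were above all 6 proteinases at both ages, and Timp4 was not. In 2-month cartilage the order of mean FPKM was Timp3, Timp2 (84.4), Timp1 (47.0), Timp4 (5.24), Adamts2 (5.22), Adamts1 (3.70), Adamts5 (3.30), Adamts9 (1.33), Adamts4 (0.862) and Adamts15 (0.259). Between neighbours in this order the ranges over libraries were apart only from Timp2 to Timp1 and from Timp1 to Timp4. In 18-month cartilage Timp2 (33.7 FPKM) and Timp3 (32.1) were level with overlapping ranges, Timp1 followed at 17.2, and Adamts2 (5.56) stood above Adamts5 (2.46). Adamts5, Adamts1 (1.95) and Timp4 (0.858) each overlapped the next in order, Adamts9 (0.786) came after them, and Adamts4 (0.649) and Adamts15 (0.152) closed it with ranges apart from each other and from Adamts9. Timp4 therefore went from rank 4 to rank 7.

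The sum of the 4 TIMPs was 346.5, 229.8 and 291.9 FPKM in the 2-month libraries and 112.3, 70.5 and 68.7 FPKM in the 18-month libraries, with the ages apart. The sum of the 5 aggrecanases was 6.50, 15.6 and 6.21 FPKM at 2 months and 6.32, 6.02 and 5.64 FPKM at 18 months. Apart from 2-month replicate 2, the aggrecanase sum in FPKM was thus of similar size in all libraries. FPKM summed over all genes was 269587 to 293108 at 2 months and 360503 to 387502 at 18 months. The likeness therefore depends on this scaling. The aggrecanase sum as a percent of the TIMP sum was 1.88, 6.80 and 2.13 at 2 months and 5.63, 8.55 and 8.22 at 18 months. Its mean was 3.60% ± 2.77 (SD, n = 3) against 7.46% ± 1.60 (SD, n = 3), with overlapping ranges. Without 2-month replicate 2 the 2-month mean was 2.00% ± 0.177 (SD, n = 2) and the ages no longer overlapped.

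The makeup of the TIMP pool was not tested and is given as a description. Timp3 made up 61.8%, 38.1% and 53.6% of the TIMP sum in the 2-month libraries and 44.5%, 34.4% and 32.2% in the 18-month libraries, or 51.2% ± 12.01 against 37.0% ± 6.54 (SD, n = 3 each). Timp2 made up 30.2% ± 7.98 against 41.1% ± 5.18, Timp1 16.9% ± 6.49 against 20.9% ± 1.899, and Timp4 1.74% ± 1.12 against 0.944% ± 0.412. Each of these 4 shares overlapped between the ages, and in each 2-month replicate 2 lay on the side of the 18-month libraries. Of the aggrecanase sum, Adamts1 and Adamts5 together were the larger part in all 6 libraries. Adamts4 made up 2.00%, 14.2% and 3.85% at 2 months and 10.6%, 10.6% and 11.4% at 18 months. Relative to Timp3, its matrix-bound inhibitor, Adamts5 was at 1.38%, 4.71% and 1.79% of the Timp3 FPKM at 2 months and at 4.61%, 10.5% and 11.4% at 18 months. This ratio, too, overlapped only through 2-month replicate 2.

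**Figure D3:**
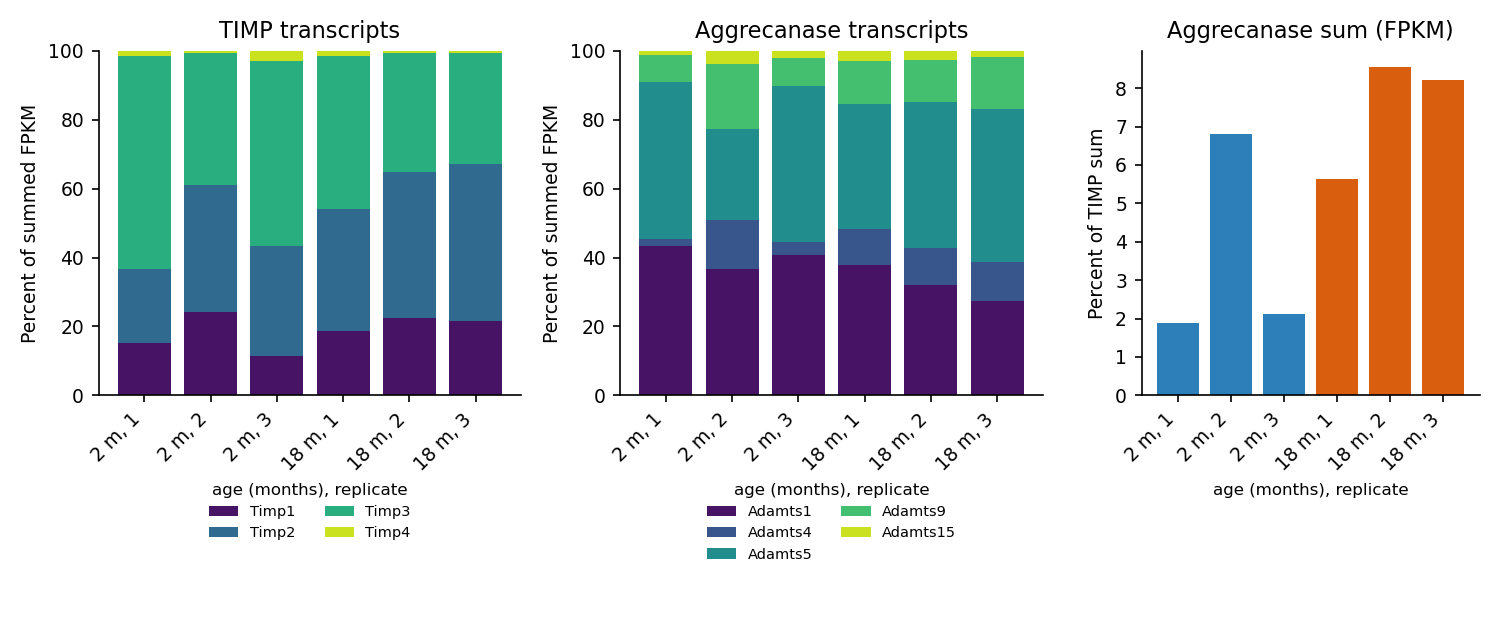
Share of each TIMP in the summed TIMP FPKM (left), share of each aggrecanase in the summed aggrecanase FPKM (middle), and the aggrecanase sum as a percent of the TIMP sum (right), in each of the 6 libraries. The ratio is 1.88% and 2.13% in 2-month replicates 1 and 3, 6.80% in 2-month replicate 2 and 5.63% to 8.55% in the 18-month libraries.

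Markers of several cell types also differed between the libraries. The shares of all tested genes called lower and higher were 21.3% and 14.9%, and without 2-month replicate 2 they were 21.3% and 23.3%. In bulk tissue, fewer cells of a type and less RNA per cell cannot be told apart. Summed over 16 chondrocyte markers, the share of counts was 4.57% to 7.08% at 2 months and 0.0633% to 0.169% at 18 months, and 16 of 16 were called lower, with a median log2 fold change of -6.78; Epyc was at 0 in all 18-month libraries. The defining markers of cartilage were therefore present in 2-month and scarce in 18-month libraries. Fibroblast markers of synovium and tendon went from 1.49% to 3.45% down to 0.140% to 0.695%, with 6 of 10 called lower and 1 higher. 14 neutrophil markers made up 0.00174%, 0.563% and 0.0268% of counts in 2-month replicates 1, 2 and 3 and 4.29% to 4.61% at 18 months. With all libraries edgeR called none of these 14 (3 were higher at an unadjusted p below 0.05, 11 were called higher by DESeq2 and 13 by limma), and without 2-month replicate 2 it called 13 higher. Of 9 erythroid markers 3 were called higher, with shares of 0.0247% to 0.658% and 2.69% to 3.56%, of 10 megakaryocyte markers 9, with 0.000747% to 0.00760% and 0.149% to 0.223%, and of 10 monocyte and macrophage markers 3, with 0.00492% to 0.0571% and 0.187% to 0.196%. Without 2-month replicate 2, 9 erythroid, 10 megakaryocyte and 9 monocyte and macrophage markers were called higher, and with all libraries DESeq2 called 8, 10 and 6.

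The 10 endothelial markers made up 0.00332%, 0.0396% and 0.00724% of counts at 2 months and 0.0385% to 0.0426% at 18 months, were highest among 2-month libraries in replicate 2 for 10 of 10, and included 1 called gene with all libraries and 9 without that library. Osteoblast and osteocyte markers were at 0.503%, 0.718% and 0.559% against 0.135% to 0.152%, with 4 of 10 called lower and none higher. Without 2-month replicate 2, 4 were called lower and 4 higher, and the median log2 fold change went from -0.84 to -0.065. Skeletal muscle markers were at 0.00904% to 0.0173% against 0.000754% to 0.000946%, with 6 of 9 called lower and Myh1 and Myh4 at 0 in all 18-month libraries. The part of these cell types in the changes of the 10 genes was not tested. The counts of Xist, which is expressed from the inactive X chromosome of females, were 88239, 102417 and 101615 at 2 months and 11, 27 and 30 at 18 months. The 2-month counts are at odds with the male mice that the methods describe. The ages thus cannot be told apart from this difference in Xist, and Timp1 is on the X chromosome.

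**Figure D4:**
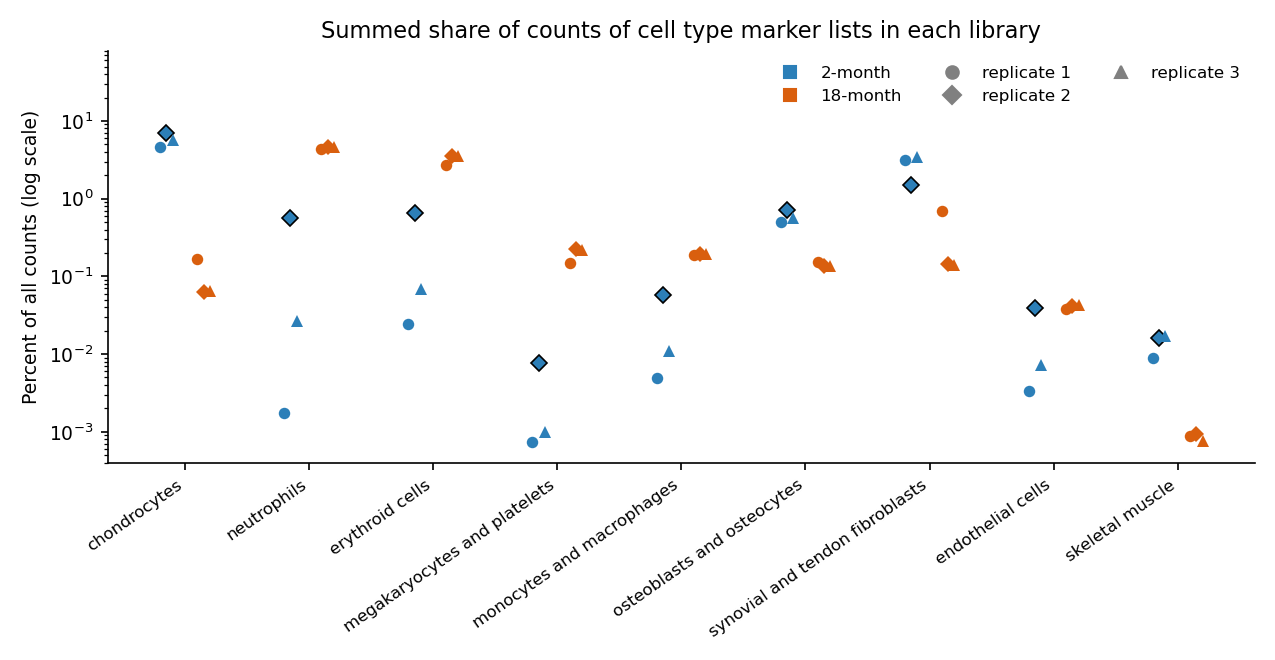
Summed share of all counts (log scale) of the marker lists of 9 cell types in each library, with colours, shapes and outline as in the plot of FPKM by library. Chondrocyte markers are at 4.57% to 7.08% in the 2-month libraries and at most 0.169% in the 18-month libraries, and blood, marrow and endothelial markers are higher in 2-month replicate 2 than in the other 2-month libraries.

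Timp1, Timp3 and Timp4 lie inside other genes, which bears on how their reads are assigned. Positions are on GRCm38 and equal those of GENCODE M21 for all 10. Timp1 (chromosome X, 20870166 to 20874735, plus strand) lies within an intron of both transcripts of Syn1, Timp3 (chromosome 10, 86300372 to 86349506, plus strand) within an intron of 3 of the 6 transcripts of Syn3, and Timp4 (chromosome 6, 115241892 to 115252205, minus strand) within Syn2, all on the strand opposite to the synapsin gene. Synapsins are proteins of synaptic vesicles. Syn1 had 80 to 131 counts at 2 months and 36 to 93 at 18 months (log2 fold change -1.10, edgeR adjusted p = 0.0675), far below the 843 or more of Timp1. Syn3 had 110 to 228 and 29 to 74 counts (-2.09, edgeR adjusted p = 0.0171) and was called lower, again far below Timp3 with 11476 or more. Syn2 had 453, 291 and 644 counts at 2 months and 0, 11 and 29 at 18 months (-5.37, edgeR adjusted p = 0.0165), against 1834, 534 and 2814 and then 630, 172 and 198 for Timp4. Exons of Syn2 and Timp4 overlap in 2 pairs, and exons of Syn3 and Timp3 in 1 pair. The libraries were strand-specific, but the strand setting of the counting is not given in the sources used here, and without it reads of overlapping genes on opposite strands cannot be told apart.

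Timp2 is on chromosome 11 (118301069 to 118355740, minus strand) and overlaps Cep295nl without shared exon bases. Adamts2 is on the same chromosome (50602084 to 50807573, plus strand). Adamts1 (chromosome 16, 85793827 to 85803113) and Adamts5 (chromosome 16, 85856173 to 85901828) are neighbours on the minus strand, 53059 bases apart, and were the 2 proteinases whose 18-month values all lay below the 2-month values. Adamts4 is on chromosome 1 (171250421 to 171260637, plus strand). Adamts9 is on chromosome 6 (92772699 to 92943492, minus strand), where the antisense gene 9530026P05Rik was called lower (-2.72, edgeR adjusted p = 0.00660). Adamts15 is on chromosome 9 (30899155 to 30922452, minus strand).

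Among the substrates of these enzymes, Acan, the aggrecan core protein, was at 1037, 728 and 1009 FPKM in the 2-month libraries and at 40.5, 4.91 and 4.44 FPKM in the 18-month libraries. It fell by 5.91 on the log2 scale (SE 1.13, edgeR adjusted p = 0.00805), and 18-month replicate 1, the highest of its age for all 4 TIMPs, was also the highest for Acan. Of the 3 tested lecticans, the aggrecan family, Acan and Bcan (-2.62) were called lower, where 21.3% of all tested genes were. Vcan, the versican gene, was not called (-0.54, edgeR adjusted p = 0.194).

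Of 6 fibrillar procollagen genes, 4 were called lower, against 21.3% of all tested genes. They were Col2a1 (-7.20), Col3a1 (-4.38), Col5a1 (-2.13) and Col5a2 (-1.97). Col1a1, the main collagen of bone and tendon, was at 29.3, 1420 and 60.0 FPKM at 2 months and at 285, 279 and 286 FPKM at 18 months. 2-month replicate 2 was thus above and the other 2-month libraries below all 18-month libraries, as for Adamts2. It was not called with all libraries (-0.82, edgeR adjusted p = 0.638), and without 2-month replicate 2 it was called higher (2.56), as was Col1a2 (2.66).

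Among the other enzymes of procollagen processing, Adamts3, an N-proteinase acting on procollagen II, fell by 3.08 on the log2 scale, while Adamts14 was not called. For the C-propeptide, 3 of 4 tested genes fell, namely the proteinase Tll1 (-4.20) and the enhancers Pcolce (-1.38) and Pcolce2 (-7.06), and Bmp1 was not called (-1.23, edgeR adjusted p = 0.0777). Pcolce lost its call without 2-month replicate 2, where its log2 fold change was -0.87. Pcolce2 had 18862 to 20403 counts at 2 months and 73 to 394 at 18 months. With all libraries none of these genes was called higher. Over all tested genes 14.9% were called higher and 21.3% lower.

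In the wider ADAMTS family, 4 of 9 tested proteinases were called lower and none higher, against 21.3% and 14.9% of all tested genes. Those called lower were Adamts6 (-2.89), Adamts17 (-2.79), Adamts18 (-1.93) and Adamts19. Adamts19 had 32 to 42 counts in each 2-month library and 0 in each 18-month library. It was at least 14.0-fold lower when each 0 is read as up to 3 counts. The list's median of -1.93 was that of Adamts18. Of the 6 ADAMTS-like genes and papilin, which resemble the non-catalytic part of the family, Adamtsl1 (-6.20), Adamtsl2 (-4.57) and Adamtsl3 (-1.78) fell and Adamtsl5 rose (1.12). Adamtsl2 binds latent TGF-beta binding proteins and fibrillin, and it was at 7.38 to 9.36 FPKM at 2 months and 0.154 to 0.838 FPKM at 18 months.

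Of 6 genes that activate, anchor or clear the ADAMTS enzymes or restrain metalloproteinases, 5 were called lower and none higher. Over all tested genes these shares were 21.3% and 14.9%. Those called lower were the proprotein convertases Furin (-1.32) and Pcsk6 (-5.68) and the endocytic receptor Lrp1 (-2.59), which takes up ADAMTS5 and TIMP3. The heparan sulfate proteoglycan Sdc4 (-3.44) and the membrane-anchored inhibitor Reck (-3.16) were the others. Pcsk6, known as PACE4, activates aggrecanases in cartilage and was at 407, 209 and 346 FPKM against 11.9, 4.08 and 4.29 FPKM. The ages were far apart, with 2-month replicate 2 the lowest of its age. Of 7 proteinases that TIMPs inhibit, Mmp13, the main collagenase of mouse cartilage and bone, fell (-1.50) and Adam10, a sheddase inhibited by TIMP1 and TIMP3, rose (1.82), while Mmp2, Mmp3, Mmp9, Mmp14 and Adam17 were not called. Mmp9, which is abundant in neutrophils and osteoclasts, was at 1.08, 472 and 51.0 FPKM against 262, 265 and 267 FPKM.

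**Figure D5:**
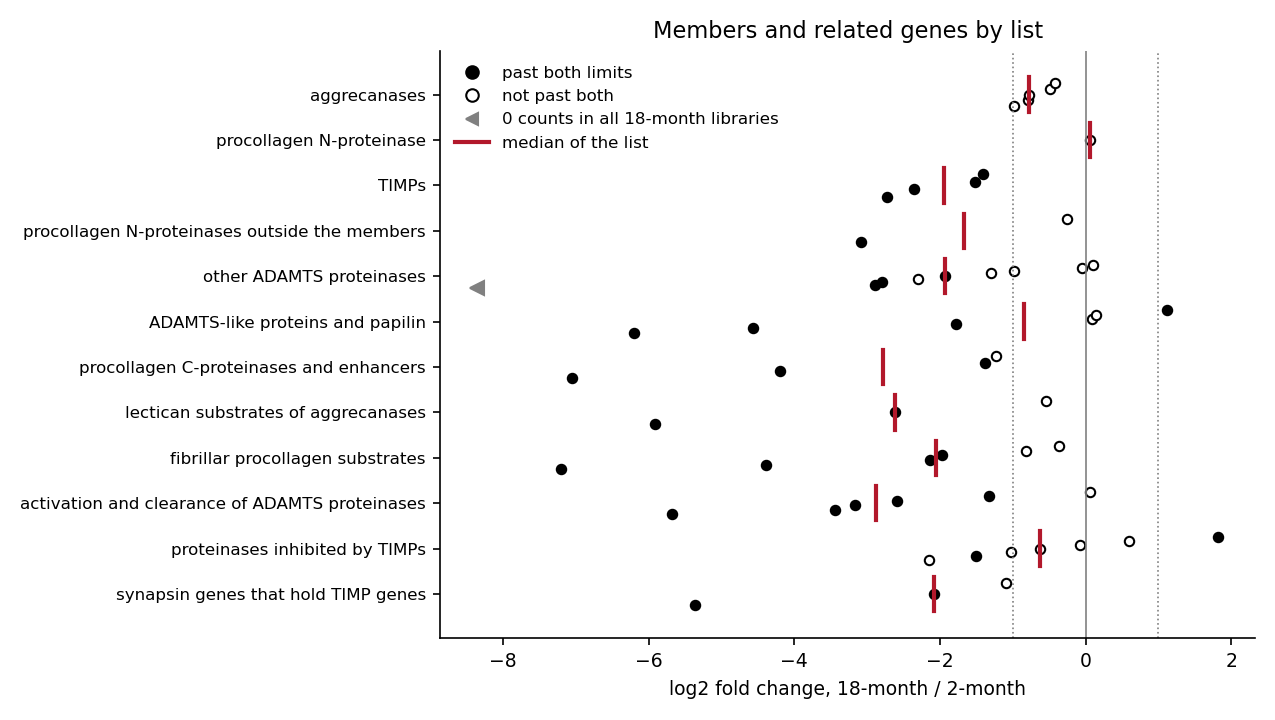
Log2 fold change of 18-month against 2-month cartilage for the 10 genes (top 3 lists) and for related genes by list, with filled points for genes past both limits, open points for the others, a red line at each list's median, and a grey triangle for Adamts19, whose 18-month libraries are all at 0 and whose fitted value is no measured fold. The TIMP median is -1.94 and the aggrecanase median -0.78, beside -2.87 for the genes of activation and clearance and -2.62 for the lecticans.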

How the data were processed

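RNA of articular cartilage had been captured with oligo(dT) beads, made into strand-specific libraries with unique molecular identifiers and sequenced from both ends. The submitters' processing notes name cutadapt 1.9, HISAT2 2.0.4, StringTie 1.3.4d, UMI-tools, edgeR and DESeq2 without roles, and the genome build is not given in the sources used here. The authors deposited 1 whole-number read count per gene and library without normalization. They also deposited FPKM values, scaled by transcript length and library total, and none of the 12 columns of the 6 libraries was left out. Of 33971 gene identifiers, 33865 were found in GENCODE M21 and 30925 (91.3% of these) had identical coordinates, which places the table on GRCm38.

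Samples were grouped by the age in their labels. Counts were scaled by TMM and tested with edgeR 4.0.16 (quasi-likelihood test, age as the only term, R 4.3.3) over 20397 genes that passed its filter on low counts, with Benjamini-Hochberg adjustment over all of them. Standard errors are the absolute log2 fold change over the square root of the F statistic. Levels between genes were compared in FPKM. As exceptions, synapsin genes were set beside TIMPs in counts, and sums and shares were repeated in counts, which are not per length. DESeq2 1.42.0, limma 3.58.1 on log2(FPKM + 0.1) with a mean FPKM of at least 0.1, other scalings, filters and pseudocounts, a replicate block and fits with 1 library left out were run as alternatives. The scripts were tested on simulated data with known changes.

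The 10 genes, the related lists and the marker lists were chosen with earlier results of these data known. All 10 were named, as were genes of the related lists past both limits, the synapsin genes, Acan, Vcan, Col1a1, Col2a1 and Col3a1, and for each of the 10 up to 3 genes with the nearest profile. Other genes named with values that did not pass were chosen after their values were seen. With 48171507 counts or more per library, counting error is small for all but the scarcest genes. Figures were drawn with matplotlib.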

Additional observations from a re-analysis of the deposited data

How the results depend on the processing

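Timp1, Timp2 and Timp3 were called lower in all 12 alternative fits with all libraries and in all 6 fits with 1 library left out, and Timp4 in the 12 and in 2 of the 6. Leaving out 1 library gave log2 fold changes of -1.70 to -1.41 for Timp1, -1.52 to -1.30 for Timp2, -2.80 to -2.01 for Timp3 and -3.49 to -2.17 for Timp4, and of -0.92 to 1.70 for Adamts4, -1.15 to 0.50 for Adamts9, -1.22 to 0.52 for Adamts15 and -0.32 to 0.98 for Adamts2. With 18-month replicates 2 and 3 summed, which was added after seeing the data because these libraries were close, Timp4 was not called (-2.45, edgeR adjusted p = 0.104). Adamts4 was above 0 in limma on log2(FPKM + 0.1) (0.40), with a pseudocount of 0.01 (0.63), on TPM (0.15) and after quantile normalization (0.32), and without 2-month replicate 2 (1.70). Without that library Adamts9 (0.50) and Adamts15 (0.52) also turned, and the count of genes called higher among the 10 went from 0 to 1. Adamts2 turned without 2-month replicate 1 (-0.32), without 2-month replicate 3 (-0.16) and with a mean FPKM of at least 1 (-0.047). The cause of these turns was not tested.

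The genes called over the whole table numbered 7401, and 5640 to 9583 with 1 library left out. Of called genes 41.2% were higher, against 50.6% in limma on log2(FPKM + 0.1), 57.8% with a pseudocount of 1 and 52.3% without 2-month replicate 2. TPM and quantile scaling moved the median of all genes to -0.33 and -0.10. In counts in place of FPKM, which are not per length, the 18-month aggrecanase sum was 14.0% of the TIMP sum and Timp3 was 73.8% and 61.7% of the TIMP sum at 2 and 18 months. Libraries of different age with the same replicate number did not deviate together (correlations of 0.0337, 0.0442 and -0.0241). The labels state no pairing, and so few correlations cannot exclude it. A fit with the replicate block called 6032 genes, with the 4 TIMPs lower and no proteinase called, and Adamts4 at 0.65. Depth limits Adamts15 and Adamts4 most, with 43 and 35 counts in their lowest libraries.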

Other observations

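The genes whose profiles over the 6 libraries were most like those of the 10 were found by the root mean square difference in centred log2 normalised counts, a description over 6 libraries that share their ages. The nearest gene to Adamts4 was Cacnb3, a calcium channel subunit, at a difference of 0.0531, with 69, 1197 and 134 counts at 2 months and 415, 358 and 358 at 18 months. Nearest to Adamts9 were Chn1 (0.164) and Gja1 (0.252), the connexin 43 gene, which is abundant in bone cells, and nearest to Adamts15 was Col4a1 (0.219), a basement membrane collagen. Nearest to Adamts2 was Ddah2 (0.111).

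Adamts5 was nearest to Slc31a1, a copper transporter (0.0465), and Adamts1 to Ltbp4, a latent TGF-beta binding protein (0.124). Timp2 was nearest to Exoc6b (0.0507) and had Tgm2, a transglutaminase that cross-links matrix, among its 3 nearest (0.0780). Timp1 was nearest to P2ry10b (0.0982), Timp3 to Snap47 (0.151) and Timp4 to Tcap, a muscle sarcomere gene (0.305), followed by Ntn4 (0.342). In none of these lists was another of the 10 genes among the 3 nearest.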
